A study of Mus musculus with 4 samples.

Results

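BRG1/BRM occupancy was examined at 10 genes of the Notch pathway in mouse cortical neurons depolarized with KCl and in basal neurons. The genes were the receptors Notch1, Notch2 and Notch3, the ligands Dll1, Dll3, Jag1 and Jag2, and the targets Hes1, Hes5 and Hey1, and all 10 were found in the RefSeq gene table of GRCm38.p6 (mm10), which holds 21900 protein-coding genes. Their members in the data were the islands, the enriched regions called by the authors, that lay in a gene body or within 50 kb of it. These were 16 of 20966 islands in KCl and 0 of 711 islands in basal neurons. The rule uses gene position and not the measured enrichment, but the 10 genes were chosen with earlier results of these data known.

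The neurons were wild-type primary cultures from E16.5 cortex, harvested on day 6 in vitro. The KCl group received 50 mM KCl for 1 h after pretreatment on day 5 with TTX (1 µM), which blocks sodium channels, and APV (100 µM), which blocks NMDA receptors. The basal group stayed at the basal KCl level, and the labels do not say whether it received the blockers. Chromatin was immunoprecipitated with the J1 antibody, which recognizes BRG1 and BRM, the alternative ATPases of the BAF chromatin remodelling complex, in 1 IP library per condition with 1 input library per condition. With 1 library each, no difference between the conditions has a replicate check, and no test between them is given. The labels do not say how many embryos went into a culture. Islands held 1433200 IP and 400612 control reads in the KCl list and 142021 IP and 130865 control reads in the basal list, and no total depth is given in the sources used here. Brackets hold 95% exact (Clopper-Pearson) intervals of a fold, in which IP and control counts both vary. They cover counting error only.

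Notch receptors are transmembrane proteins that are cut after binding a ligand of the Delta or Jagged family on a neighbouring cell. The released intracellular domain enters the nucleus and joins the DNA-binding protein RBPJ, which activates Hes and Hey genes. The Hes and Hey proteins are repressors of the basic helix-loop-helix type that hold back proneural genes, and in the embryonic cortex the pathway is known for keeping radial glial progenitors undifferentiated. Notch1 and Jag1 are also expressed in neurons, where Notch signalling has been tied to neuronal activity.

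The promoters of the members whose listed start was covered by a KCl island are shown with that of Hes5, the target without one. Each is the stretch of 250 bases before the RefSeq start, on the strand of the gene, in GRCm38.p6. They lie at chr2:26503823-26504072 (Notch1, minus strand), chr3:98013288-98013537 (Notch2, plus strand), chr17:15376933-15377182 (Dll1, minus strand), chr2:137116521-137116770 (Jag1, minus strand) and chr4:154960673-154960922 (Hes5, plus strand). Capitals mark every match, on either strand, to TGGGAA (the core of the RBPJ site), CACGTG (E box), CACNAG (N box, bound by Hes proteins), TGANTCA (AP-1) or TGACGTCA (the cyclic AMP response element). In these patterns N stands for any base.
Notch1: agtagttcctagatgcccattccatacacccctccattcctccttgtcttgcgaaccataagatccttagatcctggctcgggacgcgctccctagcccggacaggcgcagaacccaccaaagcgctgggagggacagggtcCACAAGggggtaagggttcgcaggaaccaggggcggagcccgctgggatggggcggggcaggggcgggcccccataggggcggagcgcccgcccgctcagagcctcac
Notch2: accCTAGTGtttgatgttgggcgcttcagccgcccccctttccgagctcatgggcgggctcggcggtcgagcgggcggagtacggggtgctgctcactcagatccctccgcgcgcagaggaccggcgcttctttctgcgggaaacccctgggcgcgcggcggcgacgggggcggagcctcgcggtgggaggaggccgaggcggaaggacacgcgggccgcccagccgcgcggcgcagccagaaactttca
Dll1: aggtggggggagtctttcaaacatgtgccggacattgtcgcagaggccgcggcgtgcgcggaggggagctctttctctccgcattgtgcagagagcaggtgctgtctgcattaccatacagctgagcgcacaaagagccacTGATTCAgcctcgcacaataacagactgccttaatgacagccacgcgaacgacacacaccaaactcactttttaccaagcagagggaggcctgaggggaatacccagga
Jag1: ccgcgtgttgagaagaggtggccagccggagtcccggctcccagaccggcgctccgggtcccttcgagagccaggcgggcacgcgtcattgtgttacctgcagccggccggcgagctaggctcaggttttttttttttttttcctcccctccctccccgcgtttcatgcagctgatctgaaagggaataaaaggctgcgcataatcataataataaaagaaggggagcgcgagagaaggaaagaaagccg
Hes5: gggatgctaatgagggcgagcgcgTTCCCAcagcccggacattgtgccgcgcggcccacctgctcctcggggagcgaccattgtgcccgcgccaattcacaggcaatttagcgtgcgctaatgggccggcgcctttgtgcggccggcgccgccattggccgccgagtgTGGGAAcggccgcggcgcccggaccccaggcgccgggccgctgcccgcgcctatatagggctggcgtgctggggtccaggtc

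After depolarization, BRG1/BRM islands lay in or within 50 kb of 8 of the 10 genes, against 59.3% of all protein-coding genes. In basal neurons 0 of the 10 genes had one, against 2.94% of all protein-coding genes, so the basal count does not stand apart from the share over all genes. By role, KCl islands lay near 3 of 3 receptors, 3 of 4 ligands and 2 of 3 targets. The exceptions were the ligand gene Jag2 and the target gene Hes5. For Dll3 both islands lay at other genes, which leaves 7 genes if an island counts only for its nearest gene. An island overlapped the gene body at 7 of the 10 genes, against 31.1% of all protein-coding genes. These 7 are Notch3 and the 6 genes with a start island described below, so the count is not separate from that one. The share over all genes was not matched for gene length.

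**Figure D1:**
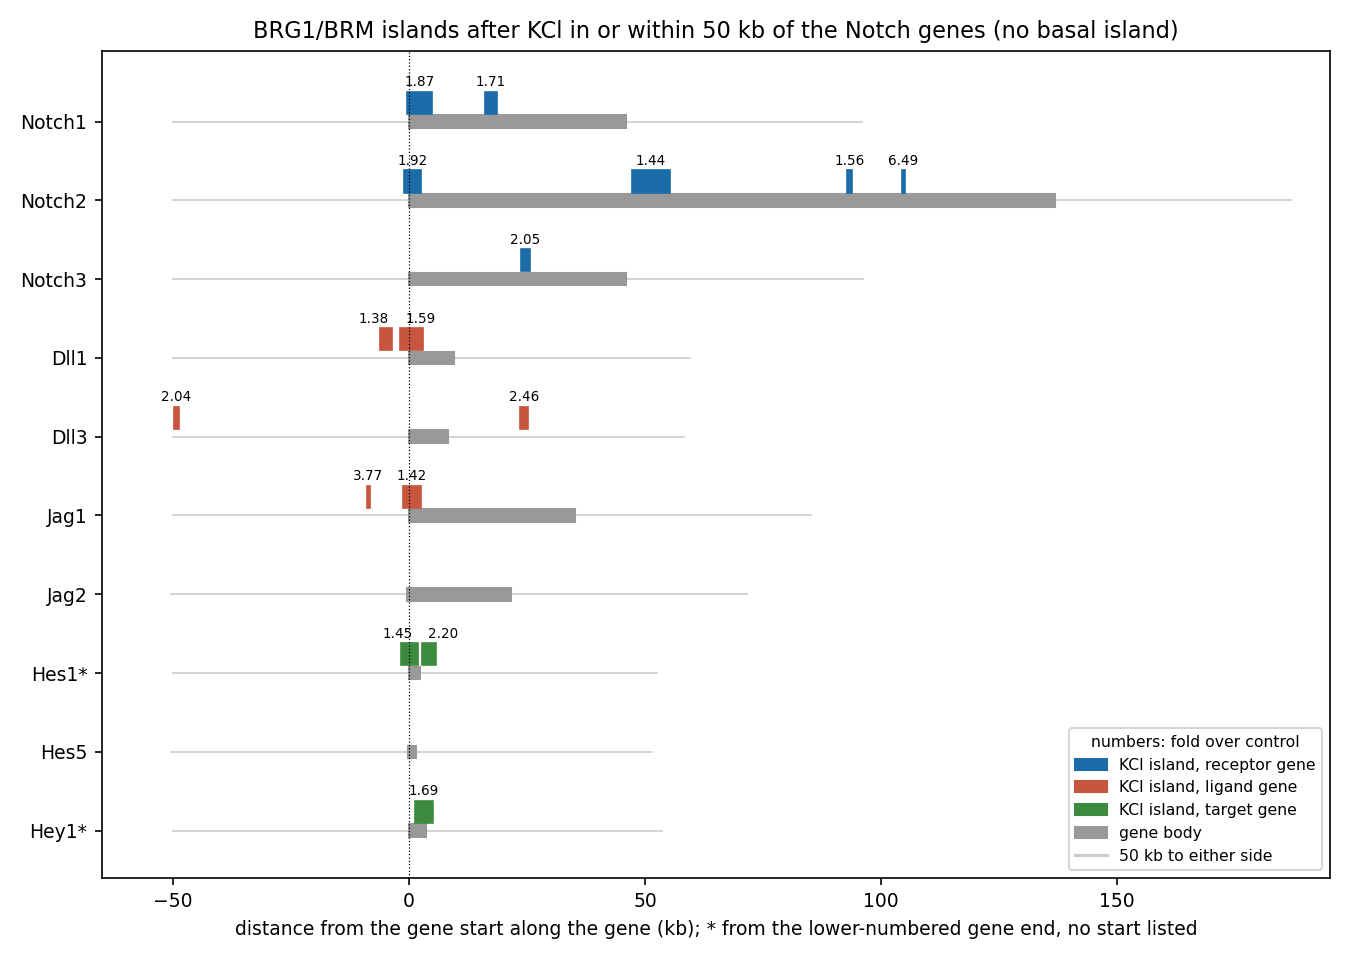
KCl islands (coloured boxes, with their fold over control) in or within 50 kb of each gene, by distance from the gene start in kb along the gene, or from the lower-numbered gene end for Hes1 and Hey1 (asterisk). Grey bars are gene bodies. Islands sit over the starts of Notch1, Notch2, Dll1 and Jag1, the 16 islands leave Jag2 and Hes5 bare, and no basal island fell in any of these windows.

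An island lay at the start of 6 of the 10 genes in KCl, that is within 2 kb of it, and at the start of 0 of 10 in basal neurons. By the same rule 19.7% of all protein-coding genes had a start island in KCl and 0.251% in basal neurons. RefSeq starts were listed for 8 members, the others being Hes1 and Hey1, which were counted because islands lay within 2 kb of both of their ends. Of the 4310 genes called by this rule in KCl, 4202 had a listed start, so few genes without one were called. The ends of Hes1 (2.44 kb) and Hey1 (3.68 kb) lie close together, so 6 of 10 against 19.7% is not a like comparison. Among the 8 with a listed start, 4 had a KCl island there (50.0%), against 24.0% of the protein-coding genes with a listed start. CpG-rich promoters, with at least 50% G or C and a CpG observed to expected ratio of at least 0.6, carried start islands in 41.1% of cases over all genes, and the other promoters in 11.7%. Of the 6 members with a CpG-rich promoter, 3 had a start island, namely Notch2, Dll1 and Jag1. Notch1 and Notch3 fell just under that ratio, at 0.588 and 0.595. The share of 50.0% among the 6 is near the 41.1% of CpG-rich promoters as a whole.

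Receptor genes had 7 KCl islands, of which 2 lay at starts and 5 inside gene bodies. Notch1, a receptor of cortical progenitors, spans 45.9 kb on chromosome 2 (26457902 to 26503822). Its start island (26499001 to 26504200) was 5200 bp wide and held 128 IP and 43 control reads, which is 1.87-fold [1.31 to 2.71]. A second island inside the gene, 16.0 kb from the start (26485201 to 26487800), held 60 IP and 22 control reads (1.71-fold [1.04 to 2.93]). Both intervals lay above 1, and the lower limit of the second was close to 1.

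Notch2, a receptor also found in progenitors and glia, is the longest member at 137 kb (chromosome 3, 98013538 to 98150367) and had the most islands, 4. At its start (98012601 to 98016200) 95 IP reads stood against 31 control reads (1.92-fold [1.27 to 2.99]). An island of 8000 bp began 47.3 kb into the gene (98060801 to 98068800), where 197 IP reads stood against 86 control reads (1.44-fold [1.11 to 1.88]). The largest enrichment of any of the 16 islands was farther in, 104 kb from the start. That island was 600 bp wide (98118001 to 98118600) and held 31 IP reads and 3 control reads, which is 6.49-fold [2.02 to 33.2], and 94.9% of the KCl list had a fold at or below it. Its interval is wide because it rests on 3 control reads. The remaining island, 92.9 kb from the start (98106401 to 98107400), held 57 IP and 23 control reads (1.56-fold [0.944 to 2.65]), so its interval included 1.

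Notch3, known from vascular smooth muscle and pericytes, had 1 island, in the gene body 23.7 kb from the start (chromosome 17, 32141201 to 32143200). It held 62 IP and 19 control reads (2.05-fold [1.21 to 3.63]). No island lay at its start. No basal island lay within 100 kb of any member. Over all protein-coding genes the basal share was 2.94% within 50 kb and was not computed at 100 kb. The absence is therefore not read as particular to these genes.

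Ligand genes had 6 KCl islands, 2 of them at starts. Dll1, a Delta ligand of committed progenitors and young neurons, is 9.58 kb long (chromosome 17, 15367354 to 15376932). An island of 4800 bp covered its start (15374001 to 15378800) and held 124 IP and 49 control reads (1.59-fold [1.13 to 2.26]). A second island 3.67 kb before the start (15380601 to 15383000) held 57 IP and 26 control reads (1.38-fold [0.852 to 2.28]) and had the lowest fold of the 16. The interval of the start island lay above 1 and that of the upstream island did not.

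Jag1, a Jagged ligand, showed the reverse order. Its start island (chromosome 2, 137114001 to 137117800) held 102 IP and 45 control reads (1.42-fold [0.993 to 2.07]), with an interval that just included 1. A narrow island of 600 bp lay 8.28 kb before the start (137124801 to 137125400), where 36 IP reads stood against 6 control reads (3.77-fold [1.57 to 10.9]). Of the KCl list, 80.4% had a fold at or below that of this upstream island and 3.54% at or below that of the start island. The intervals of both Jag1 islands overlap.

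Dll3, a Delta-like protein that acts on Notch within the cell that makes it, had no island at its start or in its body. The islands in its window overlapped other genes, Eid2b at 15.4 kb (chromosome 7, 28276601 to 28278200) and the ribosomal protein gene Rps16 at 48.6 kb (28350401 to 28351600). At Eid2b 51 IP reads stood against 13 control reads (2.46-fold [1.32 to 4.94]) and at Rps16 39 against 12 (2.04-fold [1.05 to 4.28]). The island at Rps16 is the one closest to the limit of 50 kb from inside. Just outside that limit lay an island 59.2 kb from Notch2, nearest to Reg4 (chromosome 3, 98209601 to 98212800, 2.21-fold [1.47 to 3.41]).

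Jag2, the second Jagged ligand, had no island within 50 kb. The nearest KCl island lay 76.8 kb away and overlapped Cdca4 and Gm52009 (chromosome 12, 112828401 to 112831000). It held 73 IP and 33 control reads (1.39-fold [0.909 to 2.16]). The promoter of Jag2 had the highest G and C content of the 8 listed members, 87.2%, with a CpG ratio of 1.14. Over all protein-coding genes, promoters with a KCl island at the start had a median of 63.2% G or C and those without one 52.8%. The Jag2 promoter was thus richer in G and C than the median promoter with a call, and had none. Over all genes 41.1% of CpG-rich promoters had a start island, so most of them also lacked one.

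Target genes had 3 KCl islands, at Hes1 and Hey1. Hes1, a main effector of Notch in neural progenitors, is 2.44 kb long (chromosome 16, 30065357 to 30067796) and was covered over most of its body by an island from 30063601 to 30067200. This island held 90 IP and 39 control reads (1.45-fold [0.985 to 2.17]). A second island began 405 bp beyond the higher-numbered end of the gene (30068201 to 30071000), where 63 IP reads stood against 18 control reads (2.20-fold [1.29 to 3.94]). The interval of the island over the gene included 1, and that of its neighbour did not. No other protein-coding gene lay within 185 kb of these islands, so Hes1 was the nearest gene to both by far.

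Hey1, a Hes-related repressor, had 1 island over most of its 3.68 kb body (chromosome 3, 8664601 to 8668400). It held 105 IP and 39 control reads (1.69-fold [1.16 to 2.51]). A predicted gene, LOC115489673, overlapped the same island. Hes5, the other main Notch effector of neural progenitors, had no island. The nearest KCl island lay 77.8 kb from Hes5 and overlapped Plch2, a phospholipase gene (chromosome 4, 155040201 to 155043400, 2.18-fold [1.33 to 3.74]). The targets thus differed among themselves, with calls at Hes1 and Hey1 and no call at Hes5, and a missing call does not show missing binding.

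**Figure D2:**
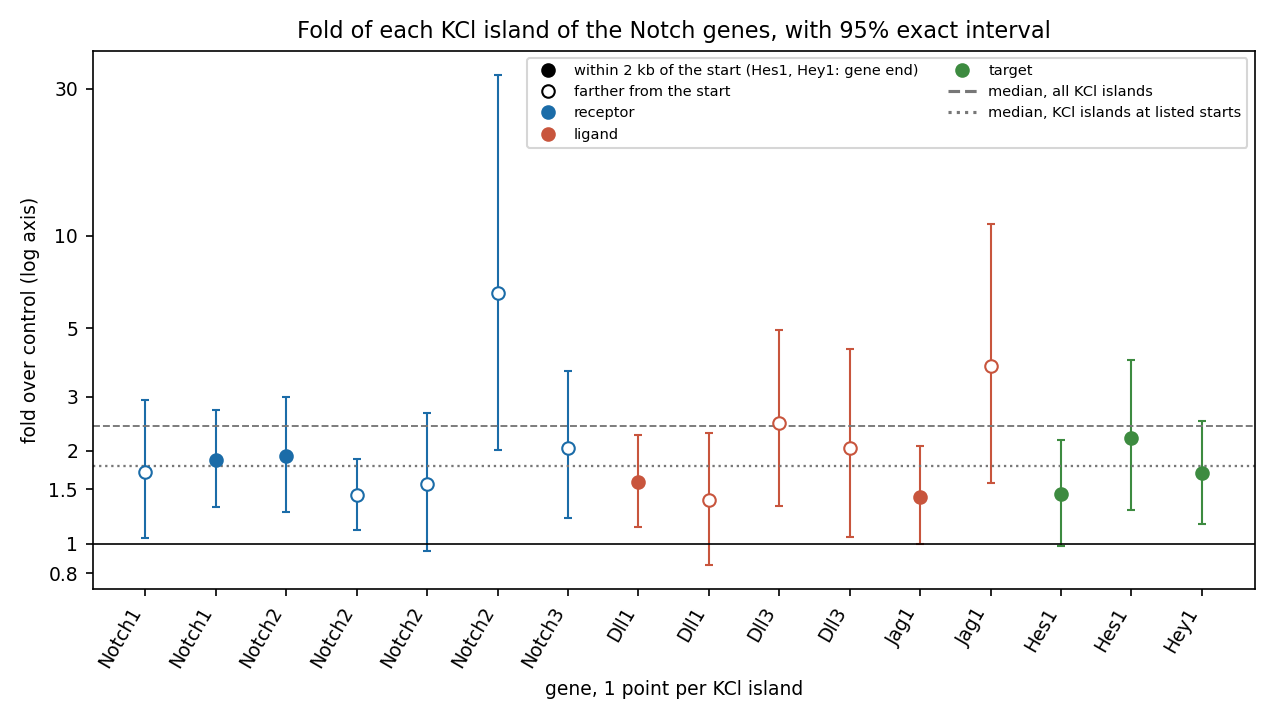
Fold over control on a log axis for each of the 16 KCl islands, with 95% exact intervals. Filled points lie within 2 kb of a listed start (for Hes1 and Hey1, of a gene end), open points farther away, and dashed and dotted lines are the medians of all KCl islands (2.40) and of those at listed starts (1.79). Most points lie under the dashed line, with islands of Notch2 (6.49) and Jag1 (3.77) as the highest.

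Enrichment was low at most of these islands. Of the 16, 13 had a fold below 2.40, the median of the KCl list, and their own median was 1.79. The interval lay above 1 at 12 of the 16 islands, against 86.4% of all KCl islands. The 4 whose interval included 1 were the start island of Jag1, the island over Hes1, the island upstream of Dll1 and 1 inside Notch2. By role, folds ran from 1.44 to 6.49 at receptors (median 1.87, 7 islands), from 1.38 to 3.77 at ligands (median 1.81, 6 islands) and from 1.45 to 2.20 at targets (median 1.69, 3 islands). Without the Dll3 window, whose islands lie at other genes, the ligand median was 1.5 over 4 islands. The ranges of the roles overlap, and islands were listed only where enriched, so no order of the roles is read from them.

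Islands at the starts were broad and of ordinary fold for such islands. The 7 islands within 2 kb of a listed start or, for Hes1 and Hey1, of a gene end were 2800 to 5200 bp wide, and all 7 were wider than 2600 bp, the median of the 3689 KCl islands at listed starts. Their median fold was 1.69, against 1.79 for islands at listed starts and 2.61 for KCl islands farther away. By fold, they stood between Jag1, with 9.43% of start islands at or below it, and the second island of Hes1, with 79.0%. That Hes1 island, the narrowest of the 7, lies beyond the higher-numbered end of a gene without a listed start. It may therefore not lie at the start, and the next below it by fold was Notch2, with 62.8%. The 9 member islands farther from a start had a median fold of 2.04 and a median width of 1600 bp. Control density was 10.2 reads per kb (median) in the 7 islands, against 9.38 in the KCl list as a whole. Median IP density was 25.8 reads per kb in the 7 islands, against 29.2 in start islands of all genes and 35.0 in the whole list. The 7 islands thus had a lower IP density than the list, while their control density was not lower.

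**Figure D3:**
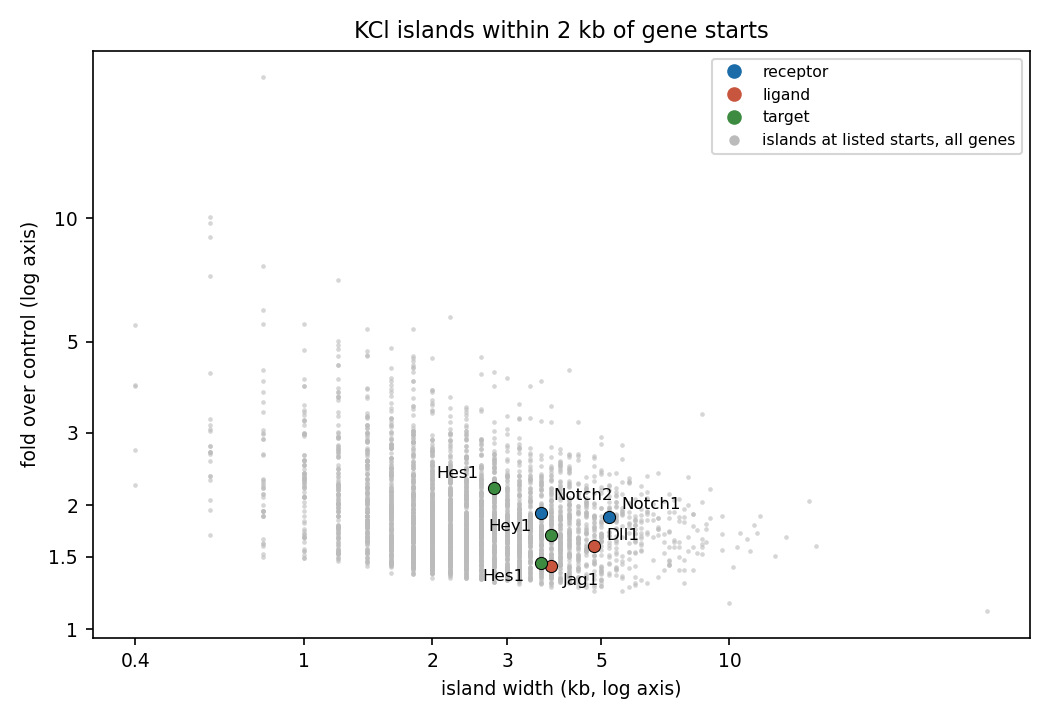
Width (kb) and fold over control, both on log axes, of the 3689 KCl islands within 2 kb of a listed start (grey) and of the 7 islands of the Notch genes (coloured by role). The coloured points lie on the broad side of the cloud, at 2800 bp and more, and at folds between 1.42 and 2.20. For Hes1 and Hey1 the islands lie within 2 kb of a gene end. The Hes1 island at 2.20-fold lies beyond the higher-numbered end, which may not be the start.

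The islands that covered a listed start reached farther into the gene than before it. At Notch1 the island ran 378 bp upstream and 4821 bp downstream of the start, and at Notch2 937 bp upstream and 2662 bp downstream. The island at Dll1 ran 1868 bp upstream and 2931 bp downstream, and that at Jag1 1280 bp upstream and 2519 bp downstream. All 4 thus leaned downstream, as did 74.4% of the 3043 KCl islands that covered exactly 1 listed start. The medians over those islands were 883 bp upstream and 1597 bp downstream. Each of the 4 promoters shown above lay wholly inside its island, near the upstream edge for Notch1.

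**Figure D4:**
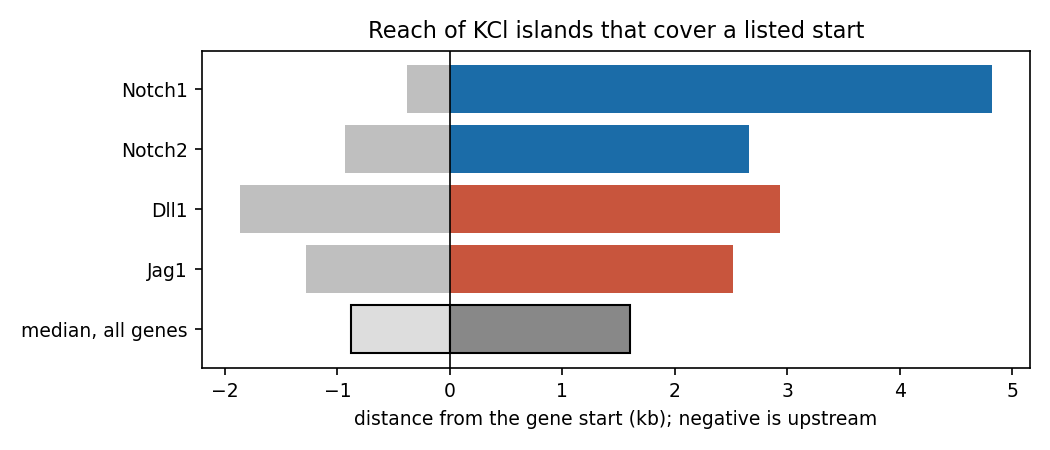
Reach of the KCl islands upstream (negative, grey) and downstream (positive, coloured) of the start of Notch1, Notch2, Dll1 and Jag1, in kb, above the medians over 3043 islands that cover 1 listed start. Downstream reach exceeds upstream reach in each row, most at Notch1 (4821 bp against 378 bp).

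In the promoter letters, the RBPJ core TGGGAA occurred in 1 of the 8 listed members, Hes5, against 20.9% of all 17492 protein-coding promoters of this length. Hes5 carried it at 2 places, 82 to 77 bases before the start on the strand of the gene and 226 to 221 bases before it on the opposite strand. The N box CACNAG occurred in 3 members, Notch1, Notch2 and Notch3, against 35.9% of promoters. The AP-1 pattern TGANTCA, which allows any middle base, matched in Dll1 as TGATTCA, 109 to 103 bases before the start, against 6.18% of promoters. Whether this match is an AP-1 site was not tested. The E box CACGTG and the cyclic AMP element TGACGTCA occurred in none of the 8, against 6.65% and 1.98%. In so few promoters these counts are near the shares over all promoters, and no relation between a motif and an island is read from them.

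Other genes of the pathway were read from a list of 42, all found. In KCl, 16 of the 42 had a start island, against 19.7% of all protein-coding genes. An island lay within 50 kb of 33 of them, against 59.3%. In basal neurons these counts were 0 and 1, against 0.251% and 2.94%, so they do not stand apart from the shares over all genes. Among the 33 of these genes with a listed start, the share with a KCl start island was 48.5%, beside the 24.0% over all genes and the 50.0% in the members. Among their 21 CpG-rich promoters 11 had one (52.4%), nearer to the 41.1% of all CpG-rich promoters. Start folds in the list ran from 1.51 to 2.94 with a median of 2.0. The largest were those of Hes7, the oscillating repressor of the somite clock (2.94-fold [2.14 to 4.12]), Neurl1a, a ubiquitin ligase of Notch ligands (2.92-fold [1.62 to 5.63]), and Dtx1, a Deltex regulator of Notch (2.87-fold [1.59 to 5.54]). Adam10, the protease that makes the first ligand-dependent cut, followed with 2.60-fold [1.71 to 4.08], then Maml3, a Mastermind coactivator, with 2.40-fold [1.65 to 3.60]. Numbl, a relative of the Notch antagonist Numb, had 2.12-fold [1.36 to 3.38]. The 1 gene with a basal island within 50 kb was Spen, an RBPJ corepressor. Its basal island lay 19.8 kb from the gene (chromosome 4, 141558401 to 141561000), where 57 IP reads stood against 43 control reads (1.51-fold [0.996 to 2.29]), and its KCl start island (141533801 to 141539400) held 160 IP and 52 control reads (1.93-fold [1.41 to 2.70]).

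The cell types were looked at by the same start rule. By it, 19.7% of all protein-coding genes had a start island in KCl. KCl start islands lay at 8 of 14 cortical neuron markers, among them Tbr1, Neurod2 and Tubb3, and at 5 of 10 progenitor and radial glia markers, namely Sox2, Vim, Fabp7, Slc1a3 and Prom1, both shares above that of all genes. They lay at 0 of 6 astrocyte markers and at 1 of 5 endothelial markers, Kdr, which is near it in lists of this size. In basal neurons no marker of these lists had a start island, and 2 of the 14 neuron markers, Map2 and Bcl11b, had an island within 50 kb, where all genes had shares of 0.251% and 2.94%. Islands mark occupancy and not expression, and the part of progenitor or vessel cells in the islands of the Notch genes was not tested.

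The counts depend on the length of the KCl list. When it was shortened to the 711 islands with the smallest p-value deposited by the authors, 0 of the 10 genes kept an island within 50 kb, against 2.42% of all protein-coding genes, so a list of that length says nothing particular of these genes. At a fold of at least 2, 5 genes kept an island, Notch2, Notch3, Dll3, Jag1 and Hes1, against 38.1% of all genes. By the rule used here 0 of the 10 then kept one at the start, against 6.28%. The second Hes1 island (2.20-fold) lay near the higher-numbered end of that gene only, where the rule asks for both ends.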

How the data were processed

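BRG1/BRM ChIP-seq of 4 samples (1 IP and 1 input library per condition) was grouped by sample titles. Per the submitters' processing notes, BWA aligned the reads to mm10 and SICER 1.0 called the islands. Window (200 bp), gap (600 bp) and FDR (0.01) settings stand in the names of the lists. The authors deposited unscaled counts of IP and control reads per island, a p-value, an FDR-adjusted p-value, and a fold. Each list comes from 1 IP library. The deposited fold equals IP reads over control reads and over a constant of the library, 1.59 in KCl and 0.880 in basal neurons. Which input served each list is not given in the sources used here, and folds were read within a list only.

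Positions were made 1-based. Gene bodies came from the RefSeq table of GRCm38.p6, and starts, strands and promoter letters from the RefSeq promoter table, which matched 8 of 10 members and 17492 of 21900 protein-coding genes. A gene without a listed start counted as having a start island when islands lay within 2 kb of both ends. Placement was tested on simulated data and against bedtools 2.31.1. Python 3.11.15 and scipy 1.17.1 were used. Intervals are 95% exact binomial intervals of IP among IP and control reads, divided by the library constant. The selection of islands for being enriched is not corrected for, and PCR reads without molecular identifiers are not independent molecules. Named pathway genes are the 6 with the largest KCl start fold and any with a basal island. The members and gene lists were chosen with earlier results of these data known. Alternatives changed distance, start window, FDR, fold, list length, overlap and interval.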

Additional observations from a re-analysis of the deposited data

How the results depend on the processing

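No paired analysis was possible because each condition has 1 IP library, and leaving out a replicate could not be done for the same reason. Of the 22 alternative values for the KCl counts, 13 stayed within 1.5 times the reported count and 9 did not. At a fold of at least 2, members with a KCl island within 50 kb numbered 5, their islands 6, islands with an interval above 1 also 6, and members with a start island 0. With the KCl list shortened to the length of the basal list by p-value, these members, islands and start members numbered 0, 0 and 0. An FDR of at most 1e-05 left 10 KCl islands at 8 members, and 4 members kept a start island (Notch1, Notch2, Dll1 and Hey1). Within 100 kb there were 27 KCl islands, and all 10 members had one. The share over all genes was not computed at 100 kb or at an FDR of at most 1e-05. In the full KCl list it was 59.3% within 50 kb and 19.7% at starts. The counts at these 2 settings are therefore not read as particular to the members. Basal counts stayed at 0 within 100 kb, within 5 kb of the start and at either gene end. The other alternatives could not have raised them. In the basal list the share over all genes was 2.94% within 50 kb and 0.251% at starts. Basal counts of 0 are therefore not read as particular to the members. Leaving out members without a listed start (chosen after seeing the data) gave 4 start members. For single genes, Dll3 had 0 islands within 10 kb or nearest to it, in place of 2. The fewest IP reads in any listed island were 20 in KCl and 18 in basal neurons. Sites with fewer reads are not listed, and the lists do not show how much enrichment could have been missed.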
